A study of Mus musculus with 20 samples.

Results

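The genes described here are 38 transcripts of the cell division cycle, followed in pancreatic islets of mice that lack P2Y14 and of wild-type mice. They were given as a list of gene symbols, which were matched to Ensembl identifiers through GENCODE M21. All 38 symbols were found among the 26211 genes of the table, and all 38 passed the filter on low values described below. They fell into 3 role groups. The G1 cyclins were Ccnd1 and Ccnd2. The G1/S and replication group had 13 members: Ccne1, Ccne2, Cdk2, Cdc6, Mcm2, Mcm3, Mcm4, Mcm5, Mcm6, Mcm7, Pcna, Rrm2 and Tyms. The G2/M and mitosis group had 23 members: Mki67, Top2a, Ccna2, Ccnb1, Ccnb2, Cdk1, Cdc20, Ube2c, Bub1, Bub1b, Aurka, Aurkb, Plk1, Birc5, Cenpa, Cenpe, Cenpf, Kif11, Kif20a, Tpx2, Nusap1, Prc1 and Ect2.

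The series compared 10 libraries from P2Y14-knockout mice with 10 from wild-type mice, all of the mixed strain C57BL/6 x 129S6. P2ry14 encodes P2Y14, a receptor at the cell surface that signals through G proteins and answers to UDP and to sugars bound to UDP. In both groups the pancreas was digested with Liberase, islets were picked under a microscope and held overnight in medium with serum, and RNA was sequenced from whole islets. An overnight culture therefore lies between the animal and every value given here. The labels do not say how the allele was made or whether each library is a separate animal, so p-values reflect only how much these samples vary, which may be technical.

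In resting cells the retinoblastoma family holds E2F factors in check. The D cyclins with CDK4 or CDK6, and then cyclin E with CDK2, relieve that hold and switch on the genes of DNA replication. Later in the cycle, complexes built on MuvB, with B-MYB and FOXM1, switch on the genes of G2 and mitosis through a promoter element named the cell cycle genes homology region (CHR), often beside CCAAT boxes bound by NF-Y. Adult beta cells divide rarely. Cyclin D2 is known as the main D cyclin of mouse beta cells. Whole islets also hold alpha, delta and PP cells, endothelial cells, stromal cells, macrophages and left-over acinar tissue, any of which can divide. In RNA from bulk islets, fewer dividing cells and less RNA per dividing cell cannot be told apart.

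The promoter letters of 6 members are shown first, because these members had low p-values in the comparison of genotypes and because the letters show how the replication and mitosis groups differ. Each line runs 5′ to 3′ on the gene's strand, from 250 bases before the RefSeq start to 30 bases after it, on GRCm38.p6. The capitals mark 3 kinds of letters: the CHR, searched as TTTGAA; the CCAAT box, searched by those 5 letters; and E2F sites, searched as TTTCCCGC, TTTCGCGC, TTTGCCGC or TTTGGCGC. Both strands were searched, so a match on the opposite strand is printed as the reverse complement, which for the CCAAT box is ATTGG. The first 4 are mitosis members: Plk1 (chr7:122159185-122159464, plus strand), a kinase that drives mitotic entry; Top2a (chr11:99024160-99024439, minus strand), the topoisomerase that untangles sister DNA; Mki67 (chr7:135716350-135716629, minus strand), which coats mitotic chromosomes and is the usual marker of cycling cells; and Cenpf (chr1:189688057-189688336, minus strand), a kinetochore protein. The other 2 are replication members: Cdc6 (chr11:98907901-98908180, plus strand), which loads the replicative helicase at origins, and Mcm6 (chr1:128359676-128359955, minus strand), a subunit of that helicase.
Plk1: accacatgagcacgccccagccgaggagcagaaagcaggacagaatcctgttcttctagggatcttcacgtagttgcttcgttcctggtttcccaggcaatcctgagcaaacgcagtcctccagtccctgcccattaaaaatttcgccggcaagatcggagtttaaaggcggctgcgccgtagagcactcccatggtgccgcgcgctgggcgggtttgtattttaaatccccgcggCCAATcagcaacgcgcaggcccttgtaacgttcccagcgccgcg
Top2a: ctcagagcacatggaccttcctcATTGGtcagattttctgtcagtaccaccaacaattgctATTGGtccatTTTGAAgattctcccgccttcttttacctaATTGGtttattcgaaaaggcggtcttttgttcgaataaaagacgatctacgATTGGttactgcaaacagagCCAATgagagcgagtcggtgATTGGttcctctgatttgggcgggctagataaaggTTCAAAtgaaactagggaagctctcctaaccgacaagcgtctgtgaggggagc
Mki67: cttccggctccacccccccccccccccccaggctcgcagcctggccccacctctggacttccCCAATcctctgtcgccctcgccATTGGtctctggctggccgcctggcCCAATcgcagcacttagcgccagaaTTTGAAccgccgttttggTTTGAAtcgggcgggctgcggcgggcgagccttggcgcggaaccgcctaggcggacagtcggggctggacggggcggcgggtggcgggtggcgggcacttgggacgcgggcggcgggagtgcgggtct
Cenpf: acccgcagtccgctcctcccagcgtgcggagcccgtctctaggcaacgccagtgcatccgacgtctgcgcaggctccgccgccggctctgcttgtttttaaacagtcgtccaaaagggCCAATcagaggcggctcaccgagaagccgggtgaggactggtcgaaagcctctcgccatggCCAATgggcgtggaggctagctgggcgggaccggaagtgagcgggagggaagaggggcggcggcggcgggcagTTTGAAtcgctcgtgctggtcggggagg
Cdc6: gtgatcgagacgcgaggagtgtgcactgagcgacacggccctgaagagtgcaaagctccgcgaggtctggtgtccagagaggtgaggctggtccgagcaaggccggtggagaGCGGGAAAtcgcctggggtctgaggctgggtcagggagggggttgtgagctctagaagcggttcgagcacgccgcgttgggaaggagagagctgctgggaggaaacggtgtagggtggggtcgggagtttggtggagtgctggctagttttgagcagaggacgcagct
Mcm6: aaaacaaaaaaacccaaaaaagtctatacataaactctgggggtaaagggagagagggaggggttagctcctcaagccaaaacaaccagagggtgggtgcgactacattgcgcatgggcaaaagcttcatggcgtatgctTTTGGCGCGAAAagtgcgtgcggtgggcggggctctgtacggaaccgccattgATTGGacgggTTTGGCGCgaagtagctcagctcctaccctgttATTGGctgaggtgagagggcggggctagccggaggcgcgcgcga

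Of these 6, the 4 mitosis promoters held CHR and CCAAT letters, and the 2 replication promoters held E2F letters. Top2a had 2 CHR matches and 6 CCAAT matches, Mki67 had 2 and 3, and Cenpf had 1 and 2, its CHR letters starting 3 bases into the transcript when the start is base 1. Plk1 had 1 CCAAT match, which began 14 bases before the start, and its 1 CHR match began at base 31, just past the letters printed. Mcm6 had 3 E2F matches and 2 CCAAT matches, and 2 of the E2F matches overlapped each other. Cdc6 had 1 E2F match on the opposite strand and none of the other letters.

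Windows of 300 bases, from 250 before to 50 after a RefSeq start, were on hand for 30 of the 38 members, as 33 windows. In the mitosis group 16 of 21 windows (76.2%) held CHR letters, against 1 of 12 (8.33%) in the replication group, that of Mcm2, and 17.9% of all 32851 promoter windows. The E2F letters were in 6 of 12 replication windows (50%), those of Cdc6, Cdk2, Mcm3, Mcm5, Mcm6 and Mcm7. They were in 1 of 21 mitosis windows (4.76%), that of Cdk1, and in 2.26% of all windows. CCAAT letters were in 19 of 21 mitosis windows (90.5%), 9 of 12 replication windows (75%) and 37.4% of all windows. A match is a description of letters and not a measured binding site. Kif20a, Ccnd1, Ccnd2, Ccne2, Mcm4, Ccna2, Aurkb and Tpx2 had no window.

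**Figure D1:**
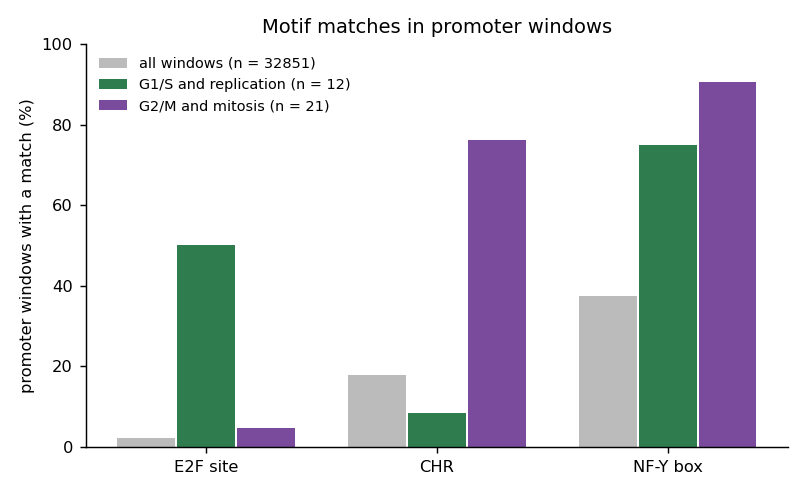
The bars give the share of promoter windows (%) that hold each motif on either strand, for all 32851 windows (grey), the 12 windows of replication members (green) and the 21 windows of mitosis members (purple). CHR letters stand at 76.2% in mitosis windows, and E2F letters at 50% in replication windows. The NF-Y box is the CCAAT box.

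The values are normalized read counts, that is the reads of a gene divided by a size factor of the library. Each column could be divided back into whole reads, and depth then ran from 34520628 to 199847246 reads over genes (median 92323083 for knockout, 105776893 for wild-type). P2ry14 itself had means of 51.2 ± 31.4 and 151 ± 67.4 (SD, n = 10 each) in knockout and wild-type. Of the 10 knockout libraries, 8 had less than any wild-type library, with an adjusted p of 0.244 by limma, and the transcript was at 0 in 1 of them. The sources used here do not give which part of the gene was removed, so reads from what is left cannot check the labels. Each marker list of an islet cell type was present, and no marker gene was at 0 in all libraries. In 3 libraries, knockout 6, knockout 7 and wild-type 19, more genes than elsewhere were at 0: of 13949 genes with a mean of at least 50, they lacked 124, 146 and 157, against 3 to 71 in the others. The fold changes, medians and counts of zeros that these 3 libraries move most are given with and without them.

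The genotypes were compared with limma on log2 of the normalized read count plus 1, over the 17482 genes whose mean reached 10, and p-values were adjusted over all of them by the Benjamini-Hochberg method. Fold changes below are differences on this scale, knockout minus wild-type, on which a gene with libraries at 0 can show a larger difference than its ratio of means.

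None of the 38 members passed an adjusted p of 0.05, a threshold that 49 of 17482 genes (0.28%) passed, 21 of them lower in knockout (0.12%). At an unadjusted p under 0.05, 8 members were lower in knockout and 0 were higher, where 8.94% of all genes were past it, 4.63% lower and 4.31% higher. The 8 were Cdc6, Mcm4, Mcm6, Mcm7, Mki67, Top2a, Plk1 and Cenpf. Of the 38 members, 26 had a negative fold change, against 50.4% of all genes, and the median was -0.35 against 0.00 over all genes. No member had groups that did not overlap, which 0.0343% of all genes had. The quasi-likelihood test of edgeR, run on the reads, called 0 members (0.246% of all genes), with 5 at an unadjusted p under 0.05, all lower (8.82% of all genes). DESeq2 called 1 member, Mcm4 (0.784% of all genes), with 6 at an unadjusted p under 0.05, all lower (9.8% of all genes).

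**Figure D2:**
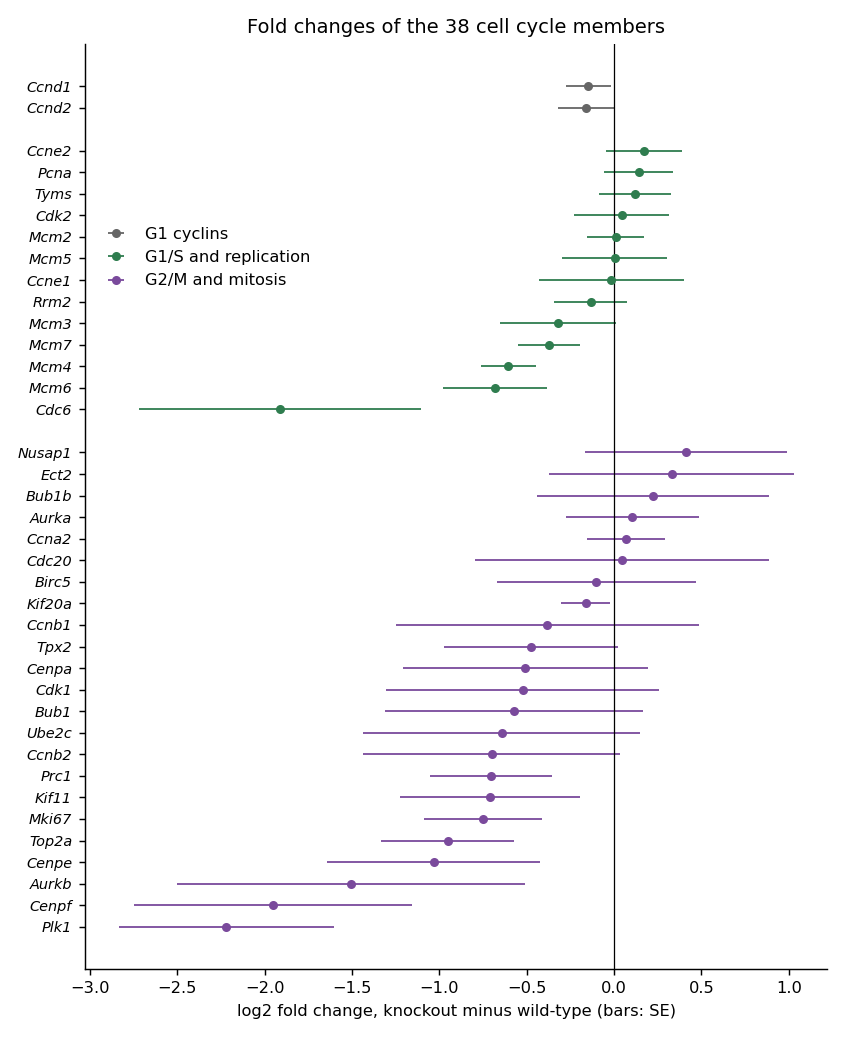
Points give the log2 fold change (knockout minus wild-type, on the log2 of the normalized read count plus 1) of each of the 38 members, and bars give its SE from limma, with the G1 cyclins in grey, replication members in green and mitosis members in purple. Replication members other than Cdc6 lie between -0.68 and 0.17, and mitosis members reach from -2.22 to 0.41 with longer bars.

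The G1 cyclins were by far the most abundant members. Per kilobase of exon, Ccnd2 stood at a mean normalized read count of 832 and Ccnd1 at 247, before Pcna at 183, Mcm4 at 102 and Kif20a at 88.2. Ccnd2 ranged from 3972 over a median of 7474 to 9849 in knockout and from 4735 over 8637 to 12084 in wild-type. The groups overlapped through most of their range. The means were 7383 ± 1690 (SD, n = 10) and 8271 ± 2107 (SD, n = 10), a log2 fold change of -0.16 (SE 0.16, limma adjusted p = 0.807). Ccnd1, the cyclin that most cells raise on mitogen signals, ranged from 913 over 1047 to 1438 in knockout and from 849 over 1213 to 1704 in wild-type. Its means were 1096 ± 186 and 1228 ± 283 (SD, n = 10 each), a log2 fold change of -0.15 (SE 0.13, limma adjusted p = 0.764). Neither difference passed the test or stood out from the spread between libraries. The exons of Ccnd1 share 23.4% of their bases with LTO1 on the opposite strand in GENCODE M21. The library kit does not mark strand, so reads from such shared bases cannot be told apart.

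In the replication group the subunits of the MCM helicase, which unwinds DNA at the fork, had uneven values. Mcm4, Mcm6 and Mcm7 had unadjusted p-values under 0.05, whereas Mcm2 and Mcm5 had log2 fold changes of 0.01 and 0.00, and Mcm3 had -0.32 (SE 0.33). Over the 13 members 7 fold changes were negative, and the median was -0.02 on the log2 scale. All 4 members with an unadjusted p under 0.05 were lower in knockout.

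Mcm4 (ENSMUSG00000022673, chromosome 16) had the smallest p-value of the 38. In knockout its normalized read count ranged from 180 over a median of 303 to 407, and in wild-type from 349 over 384 to 681. Thus 8 of 10 knockout libraries had less than any wild-type library, while knockout replicates 7 and 8 were within the wild-type range. The means were 290 ± 68.6 and 441 ± 116 (SD, n = 10 each), a ratio of 0.657 and a log2 fold change of -0.61 (SE 0.16, limma adjusted p = 0.137). DESeq2 gave an adjusted p of 0.0382 for a log2 fold change of -0.60, and the adjusted p over the other ways of processing ranged from there to 0.173. When 1 library was left out it ran from 0.0996 to 0.249.

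Mcm6 ranged from 84.2 over 161 to 295 in knockout and from 70.9 over 321 to 489 in wild-type. Every knockout library was below the wild-type median, and the lowest value of all was the wild-type library 19. Its means were 180 ± 68.3 and 307 ± 134 (SD, n = 10 each), with a log2 fold change of -0.68 (SE 0.30, limma adjusted p = 0.518). Mcm7 ranged from 97.7 over 216 to 275 in knockout and from 203 over 252 to 426 in wild-type, with 8 knockout libraries below the wild-type median. Its means were 213 ± 50.6 and 276 ± 78.0 (SD, n = 10 each), a log2 fold change of -0.38 (SE 0.18, limma adjusted p = 0.552). Of its exonic bases 7.25% are shared with Ap4m1 and 1.45% with Cops6, both on the opposite strand.

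Cdc6 was low, with a mean of 23.8 over all libraries. It was at 0 in knockout replicates 2, 6, 7 and 9, with a knockout median of 14.4 and a highest value of 52.3. In wild-type it ranged from 3.15 over 21.6 to 78.8 and was at 0 in no library. The means were 15.4 ± 17.4 and 32.1 ± 23.6 (SD, n = 10 each), a ratio of 0.480, whereas the log2 fold change was -1.91 (SE 0.81, limma adjusted p = 0.497). The groups overlapped widely on either scale. Without the 3 libraries with most genes at 0, which include 2 of the 4 knockout zeros, the log2 fold change of Cdc6 was -1.27 (limma adjusted p = 0.776), that of Mcm7 was -0.20 (limma adjusted p = 0.810) and that of Mcm6 was -0.89 (limma adjusted p = 0.232). Pcna, the sliding clamp of the replication fork, had the highest count of the group at 449 ± 97.2 against 427 ± 173 (SD, n = 10 each; knockout against wild-type). It ranged from 301 over 439 to 623 in knockout and from 224 over 371 to 733 in wild-type, with a log2 fold change of 0.14 (SE 0.20, limma adjusted p = 0.860), or 0.29 (limma adjusted p = 0.811) without the 3 libraries.

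The other replication members were between a mean of 102 and 293 and had log2 fold changes between -0.32 and 0.17. Ccne1 and Ccne2, the E cyclins that activate CDK2 at the start of S phase, had -0.02 (SE 0.41) and 0.17 (SE 0.22). Cdk2 had 0.04 (SE 0.27). Rrm2, a subunit of ribonucleotide reductase, and Tyms, thymidylate synthase, both of which make DNA precursors, had -0.13 (SE 0.21) and 0.12 (SE 0.21). None of these differences passed the test.

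The mitosis group was lower in level and more variable. Of its 23 members, 11 had a mean under 50 and 13 were at 0 in at least 1 library, against 1 and 1 of the 13 replication members. The median coefficient of variation over the wild-type libraries was 61.6% in the mitosis group, 37.6% in the replication group and 24.2% for the G1 cyclins. Log2 fold changes were negative for 17 of the 23, with a median of -0.52. The median log2 ratio of means was smaller in size, at -0.36, with 18 ratios under 1. Without knockout replicate 7 the median log2 fold change was -0.28, and without the 3 libraries with most genes at 0 it was -0.36.

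Plk1 (ENSMUSG00000030867, chromosome 7) had the smallest p-value of the group. It was at 0 in knockout replicates 6, 7 and 9, where a count of 0 reads allows up to 7.71, 6.11 and 4.29 normalized reads, a limit that covers counting error only. The knockout median was 5.98 and the highest value 22.4, and the wild-type libraries ranged from 3.73 over 26.9 to 44.6. All 10 knockout libraries were below the wild-type median, and 6 of 10 wild-type libraries were above the highest knockout library. The means were 7.76 ± 7.77 and 27.3 ± 12.9 (SD, n = 10 each), a ratio of 0.285 and a log2 fold change of -2.22 (SE 0.62, limma adjusted p = 0.173). With quantile normalization, which called 54 genes, the adjusted p by limma was 0.0413. With library weights, which called 0.932% of all genes, it was 0.0267. Over all the ways of processing tried it ranged from there to 0.341, the value by edgeR. Without the 3 libraries with most genes at 0, of which knockout 6 and 7 had no Plk1 read, the log2 fold change was -1.89 (limma adjusted p = 0.143).

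Top2a ranged from 20.6 over 103 to 257 in knockout and from 98.9 over 217 to 346 in wild-type. Its means were 129 ± 77.8 and 225 ± 97.3 (SD, n = 10 each), a log2 fold change of -0.95 (SE 0.38, limma adjusted p = 0.465). Mki67 ranged from 24.4 over 54.1 to 182 in knockout and from 55.1 over 87.7 to 218 in wild-type. For both genes 8 of 10 knockout libraries were below the wild-type median, and both were high in knockout replicate 6. The Mki67 means were 67.2 ± 47.5 and 106 ± 54.5 (SD, n = 10 each), a log2 fold change of -0.75 (SE 0.34, limma adjusted p = 0.528). Without the 3 libraries with most genes at 0 the log2 fold changes of Top2a and Mki67 were -1.13 and -0.90 (limma adjusted p = 0.476 and 0.387).

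Cenpf ranged from 0, in knockout replicates 6 and 10, over 35.2 to 108 in knockout and from 23.2 over 75 to 173 in wild-type. The means were 37.6 ± 34.2 and 82.1 ± 51.2 (SD, n = 10 each), a ratio of 0.458, with a log2 fold change of -1.95 (SE 0.80, limma adjusted p = 0.478), and 9 of 10 knockout libraries were below the wild-type median. Without the 3 libraries the log2 fold change was -1.61 (limma adjusted p = 0.666). Kif20a, a kinesin of the dividing cell's midzone, had the highest count of the group, at 362 ± 82.8 against 403 ± 84.5 (SD, n = 10 each; knockout against wild-type). It ranged from 264 over 355 to 511 in knockout and from 329 over 380 to 598 in wild-type, with a log2 fold change of -0.16 (SE 0.14, limma adjusted p = 0.761). Its level stood apart from the rest of the group: per kilobase it was at 88.2, whereas Mki67 was at 8.60 and Plk1 at 7.96. In GENCODE M21, 29.3% of its exonic bases lie opposite exons of Cdc23, which had a mean of 2286. Without strand the reads from those shared bases cannot be told apart.

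**Figure D3:**
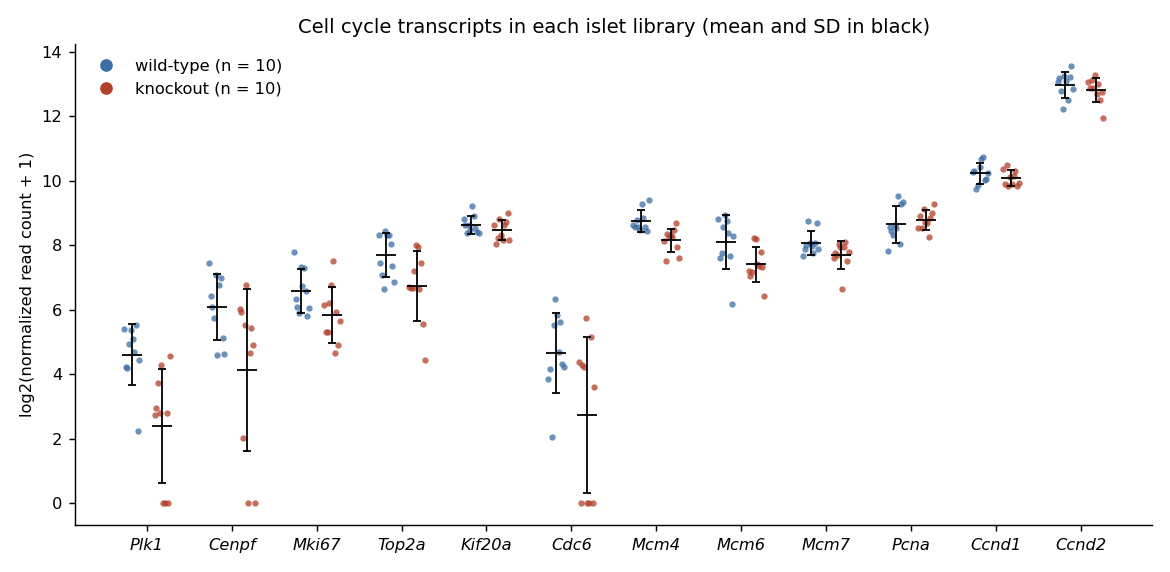
Each point is 1 library, on the log2 of the normalized read count plus 1, for 12 members, with wild-type in blue and knockout in red, and black bars give the mean and SD of 10 libraries. Points on the line at 0 are libraries without a read, 3 for Plk1, 2 for Cenpf and 4 for Cdc6, all knockout, and the groups overlap for every gene.

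No other kinetochore or spindle gene had an unadjusted p under 0.05. Aurkb, the kinase that corrects faulty chromosome attachments, had 15.3 ± 20.2 against 32.8 ± 28.2 (SD, n = 10 each; knockout against wild-type), with 4 and 2 libraries at 0. Its log2 fold change was -1.51 (SE 1.00). Cenpe, a kinetochore motor, had -1.03 (SE 0.61) and the lowest level per kilobase of all 38 members, 1.70. Prc1, which bundles midzone microtubules, was below the wild-type median in all 10 knockout libraries, with a log2 fold change of -0.70 (SE 0.35, limma unadjusted p = 0.0546). Of its exonic bases 11.1% are shared with Rccd1 on the opposite strand. Kif11, the motor that separates spindle poles, had -0.71 (SE 0.51).

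The cyclins and partners of mitotic entry had an unadjusted p above 0.05 too. Cdk1, the mitotic kinase, had the same mean in both genotypes, 109 ± 94.3 and 109 ± 66.9 (SD, n = 10 each). Its log2 fold change was -0.52 (SE 0.78), which is also the median of the mitosis group. Its cyclins Ccna2, Ccnb1 and Ccnb2 had log2 fold changes of 0.07 (SE 0.23), -0.38 (SE 0.87) and -0.70 (SE 0.74). For Cdc20 and Ube2c, which work with the anaphase-promoting complex to destroy those cyclins, the values were 0.04 (SE 0.84) and -0.64 (SE 0.79). Bub1 and Bub1b, of the spindle checkpoint, had -0.57 (SE 0.74) and 0.22 (SE 0.66). Aurka, the spindle pole kinase, had 0.10 (SE 0.38), and Tpx2, its activator, had -0.48 (SE 0.50). Birc5 (survivin) had -0.10 (SE 0.57), Nusap1 had 0.41 (SE 0.58), Ect2, which sets up the cleavage furrow, had 0.33 (SE 0.70), and Cenpa, the centromeric histone, had -0.51 (SE 0.70). In 8 members the log2 fold change and the ratio of means pointed opposite ways, so neither sign is read as a direction. The counts of negative fold changes above include these 8 by the sign of the log2 fold change. They were Ccne1, Mcm2, Mcm5, Cdk1, Cdc20, Cenpa (ratio 1.26, knockout replicate 7 at 0), Ect2 (ratio 0.781, wild-type library 20 at 0) and Bub1b (ratio 0.868, wild-type library 19 at 0).

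Values of 0 were more frequent among knockout libraries. Of the 380 values of the members in each group, 27 (7.11%) were 0 in knockout and 10 (2.63%) in wild-type, where the shares over all genes tested were 2.49% and 1.88%. In the mitosis group they were 10% and 4.35%. Knockout replicate 7 alone held 9 of the 27, replicate 6 held 5, and wild-type library 19 held 5 of the 10. Without these 3 libraries 13 of 304 values (4.28%) were 0 in knockout and 5 of 342 (1.46%) in wild-type, beside 1.90% and 1.63% over all genes tested. The median depth of knockout libraries was also lower, and the part of depth in these counts was not tested.

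Levels of the mitosis members varied between libraries of the same genotype. In the wild-type libraries 11, 15, 16 and 17, between 11 and 16 of the 23 members ranked among the 5 highest of the 20 libraries. Knockout replicate 7 had 12 members among the 5 lowest, and knockout replicates 2 and 10 and wild-type library 19 had 11 each. The summed level of the group ran from 1118 to 2450 in knockout (mean 1653 ± 379) and from 1208 to 2849 in wild-type (mean 2042 ± 659; SD, n = 10 each). The summed replication members ran from 2315 to 3227 and from 2197 to 3795. Both sums overlapped between genotypes, and the wild-type group held the lowest replication sum as well as the highest.

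**Figure D4:**
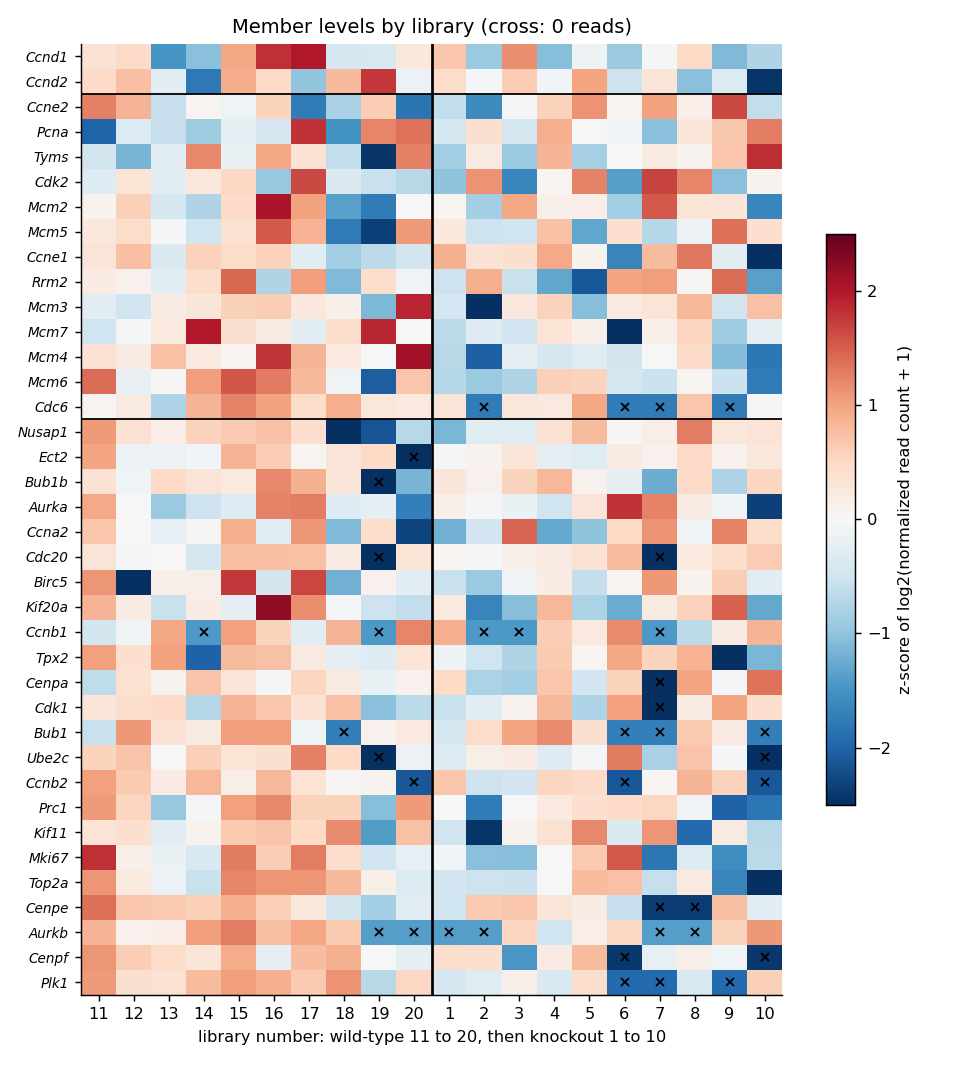
Colours give the z-score over the 20 libraries of the log2 of the normalized read count plus 1, with 1 line for each member and 1 column for each library, wild-type 11 to 20 on the left and knockout 1 to 10 on the right. Crosses mark 0 reads, 27 in knockout and 10 in wild-type, and the mitosis members in the lower block are mostly red in wild-type libraries 11, 15, 16 and 17.

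Across the 20 libraries Mki67 was related to Top2a, with a Pearson r of 0.764 on the log2 scale and a Spearman rho of 0.875. Permutation tests with 100000 resamples gave p = 4.0e-05 for r and 2e-05 for rho, and adjusted p of 5.2e-04 and 2.6e-04 over 13 relations. Within genotypes r was 0.620 in knockout and 0.871 in wild-type (permutation p = 0.0567 and 0.00141; adjusted p = 0.246 and 0.0367 over the 26 relations within genotypes). Without the 2 libraries farthest from the Mki67 median, knockout 7 and wild-type 11, it was 0.781. Mki67 with Plk1 gave r = 0.469 (permutation p = 0.0360, adjusted p = 0.234) and 0.261 without those 2 libraries, and rho was 0.508 (permutation adjusted p = 0.157). Within knockout it was 0.119 and within wild-type 0.619. No other relation passed the adjustment either: Mki67 with Mcm4 gave 0.353, with Ccnd1 0.346, with Ccnd2 0.143, with Mcm2 0.02, with Pcna -0.17 and with Cdkn1a -0.26. With the acinar share of reads r was 0.00988, with Ptprc of leukocytes 0.0529, with Pecam1 of endothelium 0.178, with Col1a1 of stroma 0.280 and with Ins1 -0.08.

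Within genotypes several of these relations of Mki67 were uneven or opposite in sign. With Col1a1 r was 0.732 in knockout (permutation p = 0.0143, adjusted p = 0.138) and 0.0300 in wild-type. With Cdkn1a it was 0.224 in knockout and -0.72 in wild-type (permutation p = 0.0159, adjusted p = 0.138). With Ccnd1 it was -0.11 in knockout and 0.625 in wild-type, and with Mcm2 it was -0.42 and 0.50. The remaining relations lay between -0.26 and 0.343 within either genotype. Apart from Top2a in wild-type none passed the adjustment over 26, and the differences between genotypes were not tested.

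Pairs within the mitosis group had a median r of 0.176, with 196 of 253 pairs positive and 32 above 0.5. In the replication group the median was 0.0924, with 50 of 78 positive and 6 above 0.5. These are descriptions over libraries that share depth and tissue makeup. Of 13923 other genes whose mean reached 50, 11 had an r above 0.7 to the mean z-score of the mitosis members. Among them were the potassium channel Kcnk16 at 0.772 (0.593 within knockout and 0.824 within wild-type) and E2f1, an activator of the replication genes, at 0.756 (0.425 within knockout and 0.872 within wild-type). Prkaca stood at 0.742 and Epha5 at 0.738, and Ipmk, Vat1l, Tonsl, Mxd3 and Ctcf lay between 0.734 and 0.709. For E2f1 the means were 288 ± 87.7 and 411 ± 152 (SD, n = 10 each; knockout, then wild-type), with a log2 fold change of -0.49 (SE 0.23, limma adjusted p = 0.542).

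**Figure D5:**
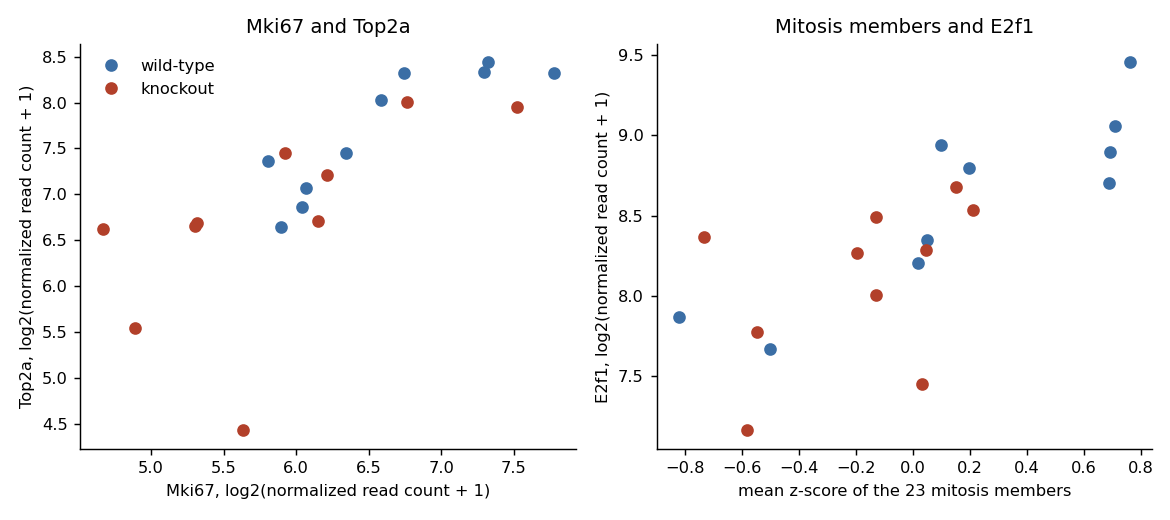
Each point is 1 library, wild-type in blue and knockout in red. The left panel sets Top2a against Mki67, both as log2 of the normalized read count plus 1 (r = 0.764, n = 20), and the right panel sets E2f1 on that scale against the mean z-score of the 23 mitosis members (r = 0.756).

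Marker genes of islet cell types are given beside these values, since some of them too had an unadjusted p under 0.05 between genotypes. Of 7 alpha cell markers 5 had negative fold changes, Gcg, Irx1 and Irx2 among them, all 5 at an unadjusted p under 0.05. The other 2, Ttr and Gc, were positive, and the median of the list was -0.57. Over all genes tested 4.63% were lower and 4.31% higher at that unadjusted p. The summed alpha markers ranged from 536530 to 1831200 in knockout and from 1188600 to 2282530 in wild-type. All 4 markers of delta and PP cells were negative, 2 of them at an unadjusted p under 0.05, with a median of -0.53. Of 14 macrophage markers 10 were positive, with a median of 0.39 and 3 at an unadjusted p under 0.05, and their sums ranged from 1744 to 6134 and from 1989 to 6192. Beta cell markers had a median of -0.19, with 2 of 9 lower at an unadjusted p under 0.05. Acinar markers had a median of 0.14, endothelial markers 0.00 and mesenchymal markers 0.11. No gene of these lists passed the adjusted p. Of the markers of T and B lymphocytes, 6 of 8 and 3 of 5 were below a mean of 10. The part of cell makeup in the members' values was not tested, except that with the acinar share as a covariate 0 members were called (0.486% of all genes).

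The rest of the cell cycle machinery was read from lists that were chosen with earlier results of these data known, and none of their genes passed the adjusted p by limma. Among 46 further mitosis genes tested, 35 fold changes were negative, with a median of -0.27, 3 lower and 1 higher at an unadjusted p under 0.05. Over all genes tested 50.4% were negative, and 4.63% were lower and 4.31% higher at that p. These are the shares to set beside the counts of this and the following lists. Ncapg2 of condensin and Cit, the cytokinesis kinase, were below the wild-type median in all 10 knockout libraries, with log2 fold changes of -0.53 (SE 0.19, limma adjusted p = 0.399) and -0.65 (SE 0.26, limma adjusted p = 0.471). H2afz, a histone variant, had 118 ± 43.6 against 65.2 ± 18.9 (SD, n = 10 each), a log2 fold change of 0.81 (limma adjusted p = 0.233). Spc25, a kinetochore subunit, had a mean of 16466 in knockout and 17402 in wild-type, with a log2 fold change of -0.04. The highest mitosis member, Kif20a, had a mean of 383 over all libraries. Spc25 was lowest in knockout replicate 10 (5960) and highest in wild-type library 20 (43239). The beta cell marker G6pc2 was lowest and highest in the same libraries (20989 and 153449). Whether the reads counted for Spc25 come from dividing cells, or from Spc25 itself, was not tested.

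Among 43 further replication genes 25 were negative, with a median of -0.05. At an unadjusted p under 0.05, 3 were lower and 2 higher, beside 4.63% and 4.31% of all genes. Dnmt1, the maintenance DNA methyltransferase, had 637 ± 141 against 839 ± 113 (SD, n = 10 each; log2 fold change -0.42, limma adjusted p = 0.248). Rpa1, which coats single-stranded DNA, and Mcm8 had 0.31 and 0.95 (limma adjusted p = 0.347 and 0.376). Of 22 RB, E2F and mitotic gene regulators 10 were negative, and 4 were lower at an unadjusted p under 0.05 (4.63% of all genes). E2f4, the main repressor E2F, had -0.27 (SE 0.09, limma adjusted p = 0.372), E2f8 had -1.99 and E2f2 had -0.73. E2f8 was low and at 0 in knockout replicates 2, 3, 5, 7 and 8 and in wild-type library 17. Foxm1 had -0.22 (SE 0.22), Mybl2, which encodes B-MYB, had 0.30 (SE 0.41), and Rbbp4, the most abundant of the list, had 0.12.

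Among the G1 kinases and their inhibitors, 1 gene, Cdk6, had an unadjusted p under 0.05, which 8.94% of all genes had. Cdk4 had a mean of 10625 in knockout and 9704 in wild-type (log2 fold change 0.13), Ccnd3 had -0.15, and Cdk6 had 36.4 ± 11.6 against 24.5 ± 20.1 (SD, n = 10 each; log2 fold change 0.90, limma adjusted p = 0.526). Of 6 CDK inhibitors 5 had positive fold changes, with a median of 0.11 and none at an unadjusted p under 0.05. Cdkn1b (p27) had 1627 against 1494, Cdkn1a (p21) had 673 ± 253 against 701 ± 473, and Cdkn2b and Cdkn2a had log2 fold changes of -0.28 and 1.37. Cdkn1a counts as positive by its log2 fold change though its mean was lower in knockout, so its sign is not read as a direction. Cdkn2a was low and at 0 in wild-type libraries 11, 17, 19 and 20 and in knockout replicate 2, which widens its log2 fold change. Of 16 genes in the list of p53 targets, which also holds Trp53 itself, 6 were negative. At an unadjusted p under 0.05, 2 were lower, beside 4.63% of all genes. Plk3 was at 981 ± 215 against 1723 ± 742 (SD, n = 10 each) and below the wild-type median in all 10 knockout libraries, with a log2 fold change of -0.75 (limma adjusted p = 0.129). Trp53 had -0.36, Sesn2 had 0.23 and Ei24 had -0.07.

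Of 11 cell cycle switches 6 were negative, with a median of -0.10 and none at an unadjusted p under 0.05. Btrc had -0.13, Cul1 had 0.12 and Cdc25a had -0.14. Of 12 regulators of beta cell replication 7 were negative. At an unadjusted p under 0.05, 2 were lower and 1 higher, beside 4.63% and 4.31% of all genes. Men1, which encodes the growth suppressor menin, had -0.23, Tph2 had -1.60, and Bmi1, which keeps the Ink4a locus silent, had 0.36 (limma adjusted p from 0.496 to 0.517). Tph2 was low and at 0 in knockout replicates 5, 7 and 10. Prlr, the prolactin receptor, was the most abundant of these regulators, with 7021 ± 3071 against 9555 ± 4561 (SD, n = 10 each; log2 fold change -0.41).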

How the data were processed

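RNA-seq values for 20 islet libraries came from 1 table of 26211 genes under Ensembl identifiers. They are a signal unit, read counts per gene normalized by the authors with DESeq, per the file's name. DESeq 1.16.0, Cufflinks 1.3.0, TopHat 1.3.3, Bowtie 0.9.9, FastQC and build mm9 are listed in the submitters' processing notes. No source used here names the read counter or its strand setting, and the TruSeq v2 kit does not mark strand. Knockout columns carry the labels' replicate numbers. Wild-type columns are numbered 11 to 20, so they were placed by group and carry no replicate number from the labels.

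In each column 100% of values were whole multiples of a step within 0.05 reads, which gave the recovered reads. Each of the 90 same-group pairs differed beyond sampling noise (lowest chi-square per degree of freedom 76.7). limma 3.58.1 (R 4.3.3, lmFit and eBayes with a mean trend) was run on log2 of the value plus 1 for genes whose mean reached 10, with genotype as the only term and all 20 libraries. edgeR 4.0.16 and DESeq2 1.42.0 on recovered reads, other pseudocounts, filters and scalings, library weights, an acinar covariate and leaving out each library were alternatives. Permutation tests used scipy 1.17.1. This limma fit was first tried on simulated data with known changes. How many of those changes it called is not reported here. GENCODE M21 (GRCm38) named 23950 identifiers and gave exonic lengths and overlaps, and RefSeq (GRCm38.p6) gave promoters.

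Members and lists were chosen with earlier results of these data known. Full values are given for the up to 4 members of each role group with the smallest p and the up to 2 with the highest mean, and in other lists the 3 with the smallest p and the most abundant were named. E2f1, Foxm1, Mybl2, Ccnd3, Cdkn1a and the members outside this rule were named for their roles. A few genes named by it are not reported here.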

Additional observations from a re-analysis of the deposited data

Results flagged for a closer look

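Each of the 76 sets of 10 libraries (38 members in 2 groups) was checked for a single library far from the others, by Dixon's criterion for 10 values, the gap to the next library over the range of the group. For independent sets of normally distributed values the criterion flags about 1 of 20. The values here were untransformed counts from the same 20 libraries, many of them low, so that rate may not hold. In all, 6 sets were flagged. Wild-type library 17 had a Cdk2 value of 224, where the other wild-type libraries lay between 74.3 and 139, and a Ube2c value of 135, where the others lay between 0 and 65.7. Wild-type library 20 had an Mcm3 value of 298, against 57.9 to 149 in the others. Knockout replicate 6 had an Mki67 value of 182, against 24.4 to 108, and a Ube2c value of 144, against 0 to 66.6. Knockout replicate 10 had an Aurkb value of 63.6, against 0 to 25.7. All are normalized read counts, and all 6 values lay above the rest of their group.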

How the results depend on the processing

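The 49 genes past the threshold became 29 with a mean of at least 100, 163 with library weights, 137 by DESeq2 and 85 with the acinar covariate. Leaving out 1 library gave 27 (without knockout 4) to 74 (without knockout 6), with 32 without knockout 8 or knockout 9 and 31 without wild-type 19. Of the members 1 was called with quantile normalization (Plk1), where 54 genes passed. Library weights called 1 (Plk1) and DESeq2 called 1 (Mcm4), and leaving out each library gave 0 to 0. In the other cell cycle lists 2 genes were called with library weights and 2 by DESeq2 (H2afz and Plk3), and leaving out 1 library gave 0 to 1 (Plk3 without wild-type 17). The median log2 fold change of replication members lay between -0.14 and 0.03 with each library left out in turn and between -0.15 and 0.00 under the other settings, so its sign was not stable. That of mitosis members ran from -0.72 (without wild-type 19) to -0.28 (without knockout 7) and from -0.62 to -0.23, negative in every setting tried. The fold changes of the 12 members given in full kept their sign under all settings tried. Without the 3 libraries with most genes at 0, an alternative chosen after seeing the data, 59 genes and 0 members passed. In that fit 8 members were lower at an unadjusted p under 0.05 and 30 had a negative fold change. The matching shares over all genes were not counted for it, and its median fold change over all genes was 0.01. No paired analysis was possible because the wild-type columns carry the numbers 11 to 20 and not the labels' replicate numbers. The causes of these changes were not tested. Members with a mean under 50 are limited by counts of few reads.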
